A study of Mus musculus with 8 samples.

Results

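Scavenger receptors are a loose family of membrane proteins that bind modified lipoproteins, dying cells, bacteria and other polyanionic ligands, and 10 of their genes were followed here among the 55487 gene identifiers of the count table. Olr1 and Scara5 were selected on their opposite changes between wild-type and Ago2 knock-out tumors in these same libraries, so their differences between genotypes are given as a description with no test. The other 8 genes (Scara3, Msr1, Marco, Cd36, Scarb1, Scarb2, Stab1 and Cd68) were chosen as family context. All 10 had enough reads to be tested.

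The libraries came from subcutaneous tumors of Lewis lung carcinoma (LLC), a transplantable lung cancer line of the C57BL/6J strain. The groups were 4 tumors of wild-type LLC cells and 4 tumors of LLC cells labelled Ago2 knock-out (ΔAgo2), all from female C57BL/6J mice aged 6 to 8 weeks at purchase, taken at day 12 after implantation. Ago2 encodes an Argonaute protein, which is guided by microRNAs to repress target transcripts and is able to cleave RNA. Cas9 and a guide delivered by lentivirus produced the knock-out, and cells were then sorted singly into clones, so clone and genotype cannot be told apart here. The host cells in every tumor kept Ago2. All libraries carried batch label 1.

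The family is divided into classes by structure. Class A receptors (Msr1, Marco, Scara3 and Scara5) carry collagen-like stalks, class B receptors (Cd36, Scarb1 and Scarb2) cross the membrane at both ends, and Cd68, Olr1 and Stab1 belong to classes D, E and H. Msr1, Marco, Cd68 and Stab1 are known from macrophages, Olr1 from activated endothelium and myeloid cells, and Scara5 from epithelium and mesenchymal cells. In bulk tumor RNA, fewer cells of a type and less RNA per cell cannot be told apart.

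The depth of the libraries was uneven. Totals ran from 7903288 counts in wild-type tumor 4 to 268564145 in ΔAgo2 tumor 4, so 3 counts corresponded to between 0.0105 and 0.430 counts per 1000000 (CPM). The libraries also leaned differently with the GC content of genes. The Spearman correlation of a library's deviation in log2 CPM with gene GC was 0.682 and 0.647 in wild-type tumors 2 and 4, and ran from -0.606 to -0.101 in the others except ΔAgo2 tumor 1 (-0.0182). Across 16059 genes, the log2 fold change between genotypes had a Spearman correlation of -0.561 with GC content, and values corrected for this trend are therefore given beside most of the results. Its part in the results was not tested beyond that correction. The Ago2 transcript was 154 ± 28.9 CPM in wild-type and 240 ± 99.2 CPM in ΔAgo2 tumors (SD, n = 4 each). Its log2 fold change was 0.64 (SE 0.30, edgeR adjusted p = 0.205), so the transcript was not lower in the libraries labelled ΔAgo2 and gave no check of the labels. Without ΔAgo2 tumor 1, the lowest of all, it was 0.85 (adjusted p = 0.0441). The study quantified Ago2 protein in the LLC cell lines by western blot, which RNA counts do not measure. Directions below rest on the library labels.

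Olr1 encodes LOX-1, the lectin-like receptor for oxidized low-density lipoprotein. The gene lies on the minus strand at chr6:129485244-129507165 (GRCm38). Its promoter is shown because Olr1 had the largest difference of the 10 genes. The window covers 250 bases before and 50 bases after the transcription start in RefSeq (GRCm38.p6, chr6:129507116-129507415, minus strand), with the only motif match found in capitals.

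Olr1: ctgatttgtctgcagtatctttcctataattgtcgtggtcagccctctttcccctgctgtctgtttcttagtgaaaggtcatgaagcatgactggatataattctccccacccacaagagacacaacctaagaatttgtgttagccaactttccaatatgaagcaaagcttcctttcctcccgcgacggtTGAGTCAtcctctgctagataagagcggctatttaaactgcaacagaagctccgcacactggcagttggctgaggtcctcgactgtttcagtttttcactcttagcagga

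The capitals mark an AP-1 type match (letters TGANTCA, the same on both strands), whose first base is at position -60, counted with the first transcribed base as 0. Such a match was present in 7.81% of the 32851 mouse promoters of this length. A STAT-type element (TTCNNNGAA, also the same on both strands) was searched and not matched in the window, against 8.3% of all promoters. RefSeq promoters were at hand for 6 of the 10 genes. Cd68 also held the AP-1 letters, with 2 matches, whereas Marco, Cd36, Scarb2 and Stab1 held neither motif. A match of letters is a description of the sequence, not a bound site.

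Olr1 was low in every wild-type tumor and high in every ΔAgo2 tumor. Wild-type tumors 1 to 4 held 2.08, 2.86, 2.54 and 2.01 CPM of it. ΔAgo2 tumors 1 to 4 held 17.3, 61.0, 36.1 and 48.8 CPM. The groups were far apart, and the lowest ΔAgo2 value belonged to tumor 1. The means were 2.37 ± 0.403 and 40.8 ± 18.7 CPM (SD, n = 4 each), a fitted log2 fold change of 4.09 (SE 0.39), or 17.1-fold. The wild-type values rested on 14 to 121 counts per library and the ΔAgo2 values on 844 to 13946 counts. With the GC trend removed the log2 fold change was 3.37, and without wild-type tumors 2 and 4 it was 4.15. Over all 23 alternatives it ran from 3.31 to 4.35.

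Scara5 encodes a class A receptor known as a ferritin receptor. It lies on the plus strand at chr14:65666403-65764826, and its levels ran the other way. The wild-type tumors had 25.5, 24.4, 14.9 and 17.6 CPM. The ΔAgo2 tumors had 3.61, 2.77, 4.03 and 4.41 CPM, so the groups did not overlap and the ΔAgo2 values were close to each other. The means were 20.6 ± 5.16 and 3.71 ± 0.702 CPM (SD, n = 4 each), with a fitted log2 fold change of -2.48 (SE 0.27), or 0.179-fold. The correction for GC left it at -2.38, and the range over the 23 alternatives was -2.61 to -1.77.

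**Figure D1:**
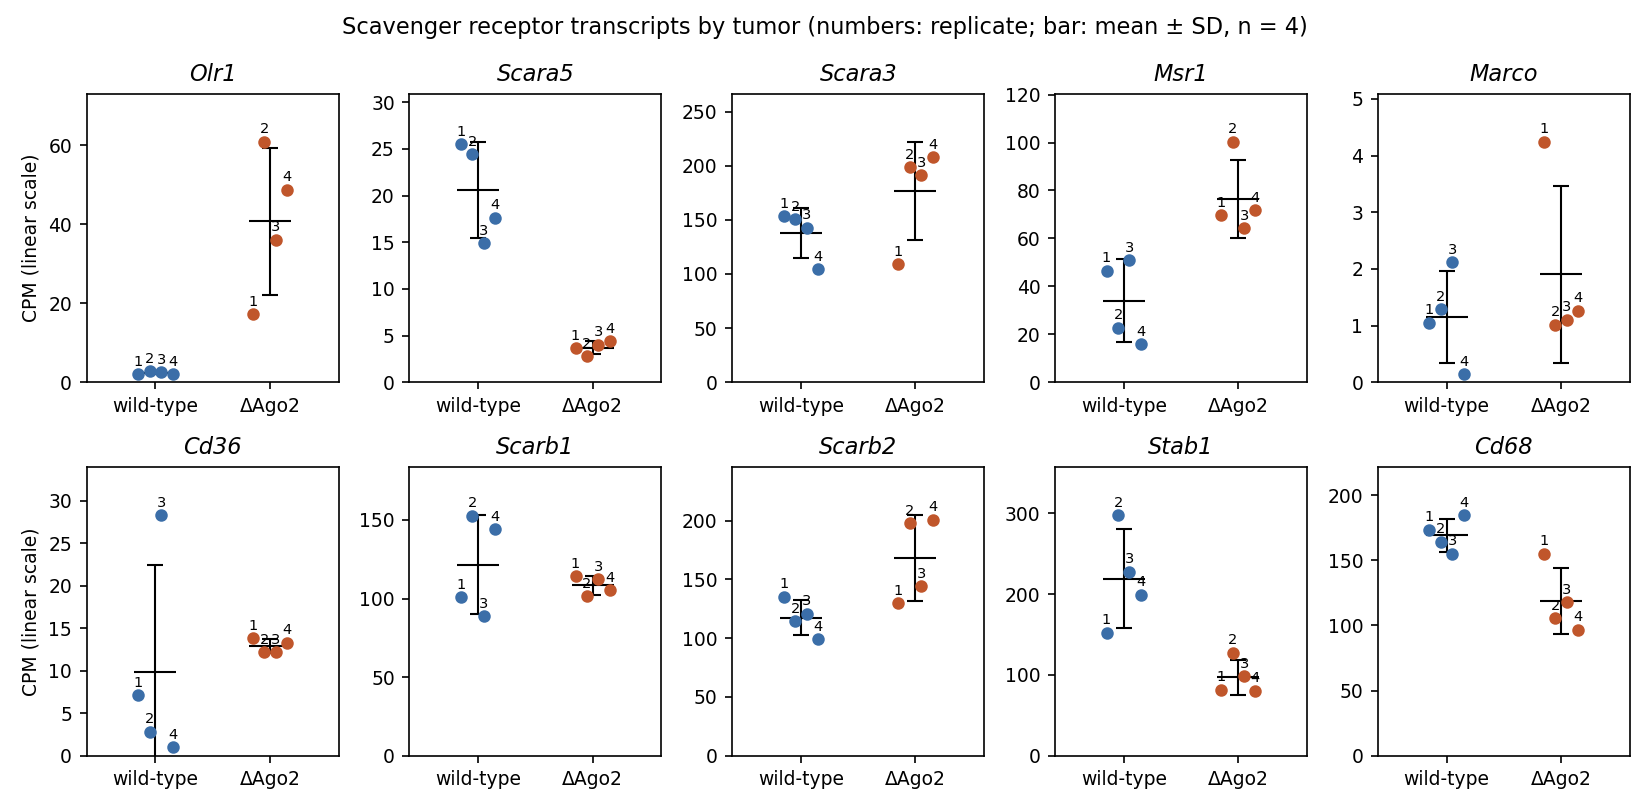
CPM of the 10 scavenger receptor genes in each tumor (linear vertical axes from 0, points numbered by replicate), with the mean and SD of 4 wild-type and 4 ΔAgo2 tumors. The lower SD bar of Cd36 in wild-type tumors passes below 0 and is not drawn there. Olr1 lies between 2.01 and 2.86 CPM in wild-type and between 17.3 and 61.0 CPM in ΔAgo2 tumors, and Scara5 shows the opposite order.

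Among the 8 context genes, 1 passed the edgeR quasi-likelihood test (adjusted p below 0.05 over all genes tested) and it was lower in ΔAgo2 tumors, while none passed in the higher direction (2 higher and 2 lower at an unadjusted p below 0.05, 1 and 1 with DESeq2, and 3 and 2 with voom after adjustment). Of the 16061 genes tested, 2.12% were called lower and 1.36% higher. At an unadjusted p below 0.05, 4281 of the 16061 passed in both directions together. After adjustment DESeq2 called 1113 higher and 1143 lower, and voom 2393 higher and 2083 lower. A log2 fold change above 0 was found for 8427. These counts are the background for the same counts in every list below. The CPM values of the groups did not overlap for 3 of the 8 (Stab1, Msr1 and Cd68), against 16.4% of all genes tested. The median log2 fold change of the 8 was 0.36, beside 0.04 over all genes tested.

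Stab1 was the context gene that fell. It encodes stabilin-1, a class H receptor of sinusoidal endothelium and of tissue macrophages that takes up acetylated low-density lipoprotein and matricellular proteins, and lies at chr14:31139013-31168641. Its levels were 152.1, 298, 228 and 199 CPM in wild-type tumors and 81.5, 127, 98.7 and 80.6 CPM in ΔAgo2 tumors. The lowest wild-type tumor was above the highest ΔAgo2 tumor. The means of 219 ± 61.0 and 97.1 ± 21.9 CPM (SD, n = 4 each) gave a log2 fold change of -1.18 (SE 0.25, edgeR adjusted p = 0.0333). The call was lost with the GC correction, where the change was -0.72 (adjusted p = 0.144), and it held in 11 of 23 alternatives, with adjusted p from 0.000493 to 0.309. Leaving out wild-type tumor 2 (-0.99, adjusted p = 0.104), wild-type tumor 4 (-1.22, 0.0636), ΔAgo2 tumor 3 (-1.18, 0.0890) or ΔAgo2 tumor 4 (-1.09, 0.135) also ended the call.

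Msr1 encodes the class A macrophage scavenger receptor for modified lipoproteins (chr8:39581685-39642673). Its levels were 46.6, 22.7, 51.0 and 15.9 CPM in the wild-type group and 69.7, 100.4, 64.3 and 71.7 CPM in the ΔAgo2 group. Every ΔAgo2 tumor was above every wild-type tumor, and the wild-type tumors with the lowest values, 2 and 4, were those that leaned to GC-rich genes. Msr1 is GC-poor (38.4%). The log2 fold change was 1.16 (SE 0.35) and missed the threshold (edgeR adjusted p = 0.0860). It was 0.45 with the GC correction and 0.67 without wild-type tumors 2 and 4, and 4 of 23 alternatives called it (adjusted p from 0.0206 to 0.285), among them the fit without wild-type tumor 3 (1.42, adjusted p = 0.0466).

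Cd68, the class D receptor of late endosomes and a common macrophage marker (chr11:69664213-69666153), had 174, 164, 155 and 185 CPM in wild-type tumors. It had 155, 106, 118 and 96.8 CPM in ΔAgo2 tumors. The groups touched but did not overlap, with wild-type tumor 3 and ΔAgo2 tumor 1 differing only in the decimals. The log2 fold change of -0.51 (SE 0.20) did not pass (edgeR adjusted p = 0.136). Without ΔAgo2 tumor 1 it was -0.67 and passed (adjusted p = 0.0379), and over the alternatives the adjusted p ran from 0.00673 to 0.424.

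Scara3, a class A member known as an oxidative stress response protein (chr14:65919394-65953935), overlapped between groups. It was 153, 150.6, 143 and 104 CPM in wild-type and 109, 199, 191 and 208 CPM in ΔAgo2 tumors. ΔAgo2 tumor 1 lay with the wild-type tumors and the other ΔAgo2 tumors lay above all of them. The log2 fold change was 0.36 (SE 0.24, edgeR adjusted p = 0.345).

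Marco, the collagenous receptor of marginal zone and alveolar macrophages (chr1:120474538-120505024), was the lowest of the family in wild-type tumors on the length-scaled measure given below. Wild-type tumors had 1.05, 1.29, 2.12 and 0.143 CPM, the last being 1 count and, alone among the 8 libraries, under the 3-count floor of that library. ΔAgo2 tumors had 4.25, 1.02, 1.10 and 1.26 CPM, so that tumor 1 alone stood above the wild-type range. The log2 fold change of 0.63 (SE 0.63, edgeR adjusted p = 0.535) turned to -0.13 without ΔAgo2 tumor 1.

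Cd36, the class B receptor that takes up long-chain fatty acids and oxidized lipoproteins (chr5:17781690-17888801), differed mainly in its spread. It was 7.12, 2.81, 28.3 and 1.00 CPM in wild-type tumors, a coefficient of variation of 128%. In ΔAgo2 tumors it was 13.9, 12.2, 12.2 and 13.3 CPM, a coefficient of variation of 6.51%. All ΔAgo2 values fell inside the wild-type range. Summed adipocyte markers reached 226 CPM in wild-type tumor 3, the highest Cd36 value, against 38.8 to 52.6 CPM in the other wild-type tumors. In ΔAgo2 tumors, the adipocyte sum was 364 CPM in tumor 1 and 22.8 to 43.1 CPM in the others, while Cd36 was level. The lowest Cd36 values were those of wild-type tumors 2 and 4, which rested on 59 and 7 counts. These tumors leaned to GC-rich genes, and Cd36 is GC-poor (38.4%). The part of adipocyte markers, depth or GC lean in the spread was not tested. The log2 fold change was 0.36 (SE 0.71, edgeR adjusted p = 0.770), 1.73 without wild-type tumor 3 and -0.08 with the GC correction.

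Scarb1, the high-density lipoprotein receptor (chr5:125277087-125341094), and Scarb2, a lysosomal membrane protein that escorts glucocerebrosidase (chr5:92441314-92506833), completed the class B genes. Scarb1 was 101, 153, 88.8 and 144 CPM in wild-type and 114, 102, 112 and 105 CPM in ΔAgo2 tumors, which lay inside the wild-type range. Its log2 fold change was -0.16 (SE 0.21, edgeR adjusted p = 0.638), and its sign depended on the processing. Scarb2 was 135, 115, 121 and 99.0 CPM in wild-type and 130, 198, 144 and 201 CPM in ΔAgo2 tumors, where only tumor 1 fell within the wild-type range. Its log2 fold change was 0.52 (SE 0.21, edgeR adjusted p = 0.149).

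**Figure D2:**
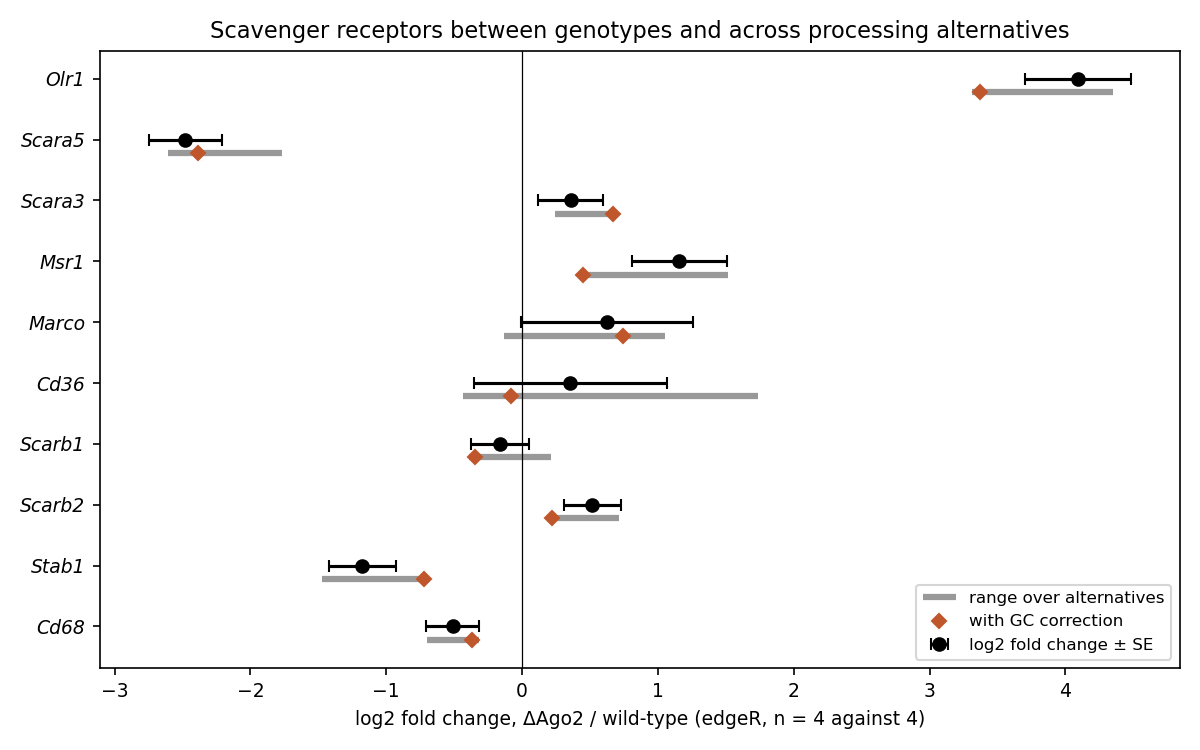
Log2 fold change between ΔAgo2 and wild-type tumors for each gene (horizontal axis, black points with SE), the value with the GC correction (diamonds) and the range over 23 processing alternatives (grey bars). Olr1 stays between 3.31 and 4.35 and Scara5 between -2.61 and -1.77, whereas the ranges of Marco, Cd36 and Scarb1 cross 0. Olr1 and Scara5 were selected on this contrast, so their ranges are no test.

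The correction for GC moved genes of different base composition in different directions. It lowered the log2 fold change of Msr1, at 38.4% GC, from 1.16 to 0.45. It raised those of the GC-rich genes Stab1, at 57.3% GC, from -1.18 to -0.72, and Scara3, at 55.5% GC, from 0.36 to 0.67 (edgeR adjusted p = 0.218). The corrected values were 0.74 for Marco, 0.22 for Scarb2, -0.35 for Scarb1 and -0.37 for Cd68. No context gene passed the threshold with this correction.

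**Figure D3:**
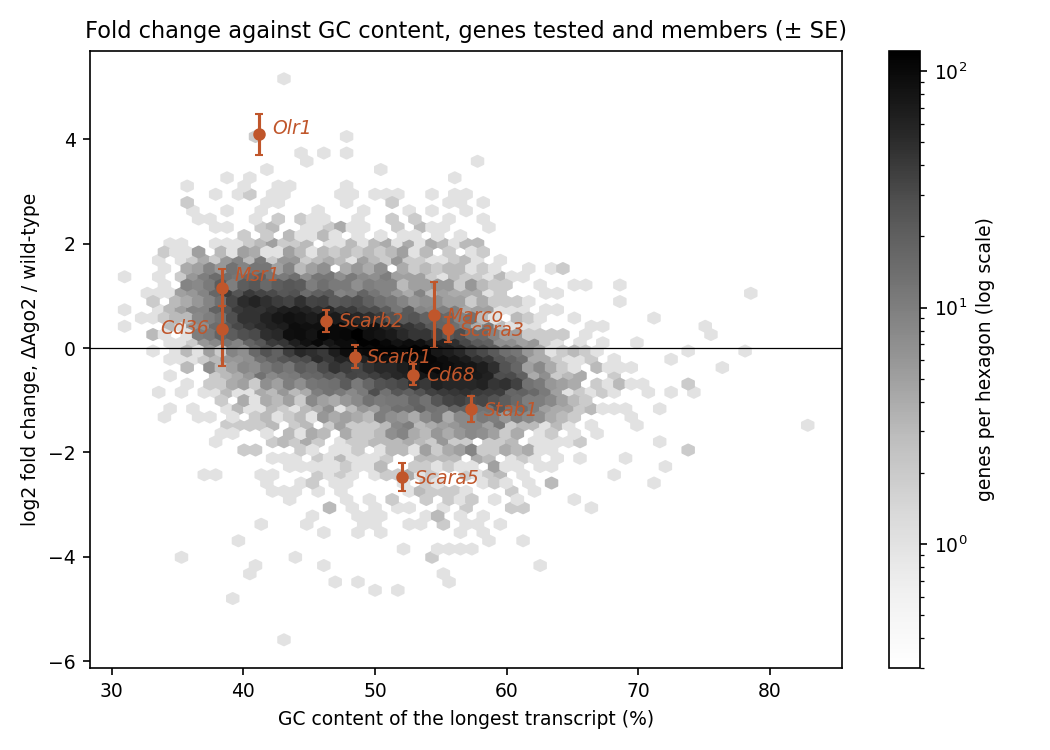
Log2 fold change between ΔAgo2 and wild-type tumors (vertical axis) against the GC content of the longest transcript (horizontal axis, %), with grey hexagons counting tested genes on a log colour scale and orange points for the 10 genes (± SE). Olr1 (41.2% GC) and Scara5 (52.1% GC) lie off the downward trend of all genes, and Msr1 and Stab1 lie along it. Olr1 and Scara5 were selected on this contrast, so their place off the trend is no test.

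On the length-scaled measure, transcripts per 1000000 (TPM), the order of the family differed between genotypes. In wild-type tumors Cd68 led at 354 ± 41.8 TPM, followed by Scara3 at 103 ± 30.2 TPM. Stab1 (56.9 ± 20.3 TPM), Scarb2 (50.1 ± 12.8 TPM) and Scarb1 (37.3 ± 9.42 TPM) came next, each within the spread of its neighbour. Below them stood Msr1 at 14.8 ± 8.63 TPM, Scara5 at 9.06 ± 3.07 TPM and Cd36 at 7.80 ± 10.2 TPM, which overlapped. Olr1 (1.78 ± 0.503 TPM) and Marco (1.70 ± 1.25 TPM) were lowest and did not differ beyond their spread.

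In ΔAgo2 tumors Cd68 (284 ± 21.6 TPM) and Scara3 (158.2 ± 63.0 TPM) again led, before Scarb2 at 85.4 ± 32.8 TPM. Scarb1 (39.3 ± 6.57 TPM), Msr1 (38.1 ± 14.5 TPM), Olr1 (37.9 ± 22.05 TPM) and Stab1 (29.9 ± 11.6 TPM) formed a group whose levels did not differ beyond their spread. Olr1 thus stood level with Scarb1 and Msr1 rather than with Marco. Cd36 followed at 11.1 ± 1.91 TPM, Marco at 2.71 ± 1.43 TPM, and Scara5 was last at 1.88 ± 0.504 TPM.

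Several of these genes are expressed by macrophages, and the level of 10 macrophage markers (Adgre1, Csf1r, Cd14, C1qa, C1qb, C1qc, Mertk, Itgam, Lyz2 and Fcgr1) was therefore set beside them. None of the 10 markers passed the edgeR test (1 higher and 1 lower at an unadjusted p below 0.05, 1 lower with DESeq2 and 3 lower with voom after adjustment) and their median log2 fold change was -0.02. The markers ran from -1.08 for Mertk (SE 0.28, edgeR adjusted p = 0.0625), whose groups were apart, to 0.77 for Fcgr1 (SE 0.30, edgeR adjusted p = 0.143). Their summed level was 1893 to 2329 CPM in wild-type and 1630 to 3658 CPM in ΔAgo2 tumors, the highest being ΔAgo2 tumor 1. The mean log2 CPM of the markers was 6.86 ± 0.146 in wild-type and 6.79 ± 0.355 in ΔAgo2 tumors. Relative to this mean, Olr1 was higher in ΔAgo2 tumors by 4.03 and Msr1 by 1.38 on the log2 scale, and Scara5, Stab1 and Cd68 fell by 2.38, 1.09 and 0.46. The mean itself differed by only -0.07 between genotypes. These relative values carry no GC correction. With that correction, the log2 fold changes not set against the markers were 0.45 for Msr1, -0.72 for Stab1 and -0.37 for Cd68. The groups were apart for these 5 genes, the same ones as in CPM, where 16.4% of all genes tested were apart. For Olr1 and Scara5 the separation follows from their selection. The remaining genes overlapped between the groups.

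**Figure D4:**
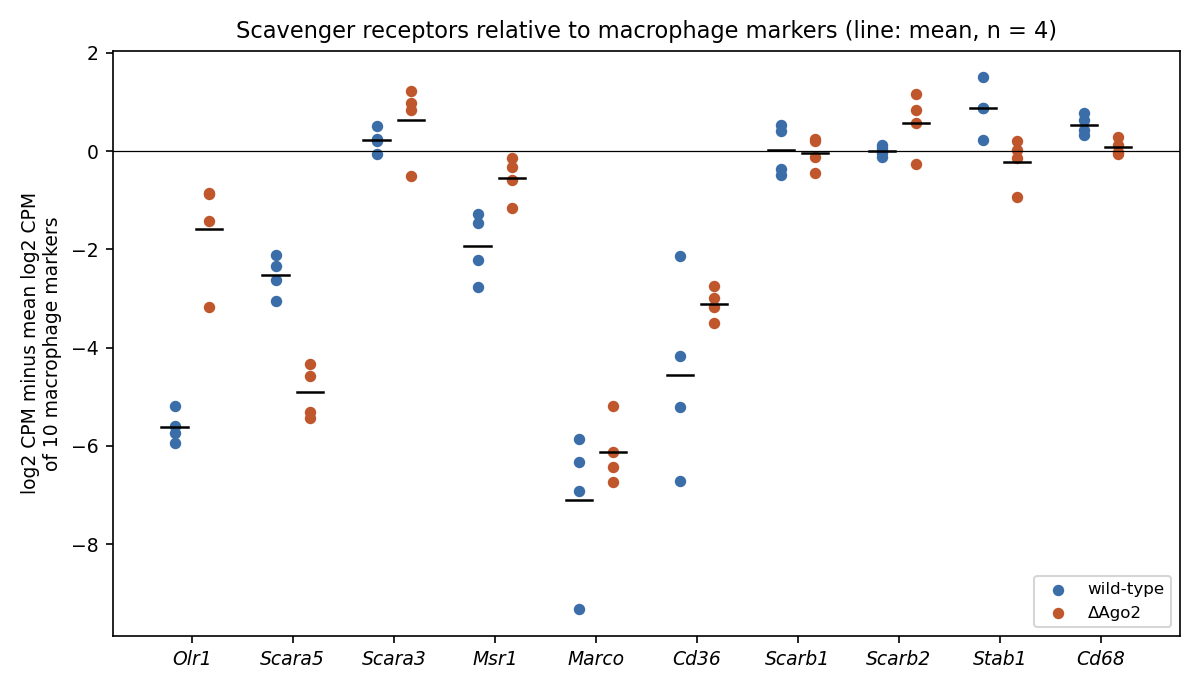
Log2 CPM of each gene minus the mean log2 CPM of 10 macrophage markers in the same tumor (vertical axis, log2 units), with a line at the mean of 4 tumors. Olr1 lies at -5.94 to -5.19 in wild-type and -3.17 to -0.86 in ΔAgo2 tumors, and Scara5, Msr1, Stab1 and Cd68 also separate by genotype. Olr1 and Scara5 were selected on their difference between these groups. The values carry no GC correction.

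Markers of other cell types moved with the genotype in part. Summed fibroblast markers were 4962 to 7291 CPM in wild-type and 2369 to 4756 CPM in ΔAgo2 tumors, without overlap, although none of the 10 passed the edgeR test (2 higher and 5 lower at an unadjusted p below 0.05, 2 lower with DESeq2, 2 higher and 3 lower with voom after adjustment, median log2 fold change -0.58). The non-overlap was that of the 3 collagen genes, which summed to 4411 to 6856 CPM in wild-type and 1870 to 4033 CPM in ΔAgo2 tumors. The other 7 markers summed to 436 to 787 CPM and 499 to 724 CPM, which overlapped, with log2 fold changes from -1.14 (Pi16) to 0.68 (Pdgfra). Summed endothelial markers were 144 to 225 CPM in wild-type and 138 to 177 CPM in ΔAgo2 tumors. Of these 10, 3 were above 0 on the log2 scale (median -0.23, and -0.06 with the GC correction). Vwf, a GC-rich gene (56.5%), was the 1 of 10 called lower by edgeR (log2 fold change -1.09, SE 0.26, adjusted p = 0.0466). Summed keratinocyte markers were 14.1 to 599 CPM and 479 to 912 CPM, with all 10 above 0 on the log2 scale (median 1.502, and 1.54 with the GC correction). The 14.1 CPM was that of wild-type tumor 3, while wild-type tumors 1, 2 and 4 held 573, 599 and 177 CPM. Krt10 was the 1 of 10 called higher by edgeR, 4 were higher at an unadjusted p below 0.05, 3 with DESeq2 and 5 with voom after adjustment. Summed skeletal muscle markers were 294 to 4178 CPM in wild-type and 57.0 to 242 CPM in ΔAgo2 tumors with none called by edgeR (all 10 lower at an unadjusted p below 0.05, and 3 with DESeq2 and 1 with voom after adjustment). The 4178 CPM was again that of wild-type tumor 3, while wild-type tumors 1, 2 and 4 held 294, 388 and 570 CPM. Adipocyte (22.8 to 364 CPM over all tumors), neutrophil (25.4 to 70.7 CPM) and pan-leukocyte (726 to 1243 CPM) sums overlapped between the groups, with none called by edgeR. Among pan-leukocyte genes, 1 was higher at an unadjusted p below 0.05, and 1 with DESeq2 and 1 with voom after adjustment. Voom also called 1 adipocyte marker lower, and 1 neutrophil marker higher and 1 lower. Ly6g, Ngp, Camp and Ltf among neutrophil markers, Lep, Pck1 and Retn among adipocyte markers and the keratinocyte marker Trp63 were at 0 counts in at least 1 tumor. The part of these cell types in the results was not tested.

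Among 16 further scavenger receptors, 13 were tested, 2 rose and none fell in edgeR, with a median log2 fold change of -0.08 (3 higher and 3 lower at an unadjusted p below 0.05, 2 higher and 2 lower with DESeq2 after adjustment). Cd44, a hyaluronan receptor, rose from 262 ± 54.5 to 482 ± 71.2 CPM (log2 fold change 0.88, SE 0.21, edgeR adjusted p = 0.0492). Megf10, an engulfment receptor for apoptotic cells, had 3, 0, 7 and 0 counts in wild-type tumors and 26, 145, 33 and 292 counts in ΔAgo2 tumors. Its fitted log2 fold change of 3.71 (SE 0.67, edgeR adjusted p = 0.0177) thus rests on wild-type levels near 0. Scarf2 had the lowest log2 fold change of the list, at 274 ± 129 against 112 ± 5.55 CPM, and narrowly missed the threshold (-1.29, SE 0.31, edgeR adjusted p = 0.0502). It was -0.32 with the GC correction (adjusted p = 0.324) and -0.52 without wild-type tumors 2 and 4 (adjusted p = 0.204). Asgr1, Stab2 and Lrp2 were too low to test.

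Genes that handle the lipids taken up by these receptors were mostly not called. Of 20 lipoprotein and cholesterol handling genes, 1 rose and none fell in edgeR (median log2 fold change 0.24, 4 higher and 2 lower at an unadjusted p below 0.05, 3 higher and 2 lower with DESeq2 after adjustment). Mylip, the ubiquitin ligase that degrades lipoprotein receptors, was 10.3, 12.2, 13.8 and 10.6 CPM in wild-type and 20.5, 27.2, 19.8 and 25.98 CPM in ΔAgo2 tumors. The groups were apart and the log2 fold change was 0.99 (SE 0.21, edgeR adjusted p = 0.0341). The list otherwise ran from Vldlr, the very low-density lipoprotein receptor, at -1.61 (SE 0.54, edgeR adjusted p = 0.103) to Pparg, a lipid-sensing nuclear receptor, at 1.15 (SE 0.45, edgeR adjusted p = 0.143).

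Of 14 genes that handle iron and ferritin, the ligand of Scara5, 2 rose and none fell in edgeR (median log2 fold change -0.01, 3 higher and 1 lower both at an unadjusted p below 0.05 and with DESeq2 after adjustment). Ireb2, a regulator of iron-responsive transcripts, rose from 16.1 ± 5.80 to 46.1 ± 20.98 CPM (log2 fold change 1.51, SE 0.36, edgeR adjusted p = 0.0491). Cp, the copper ferroxidase ceruloplasmin, rose from 22.8 ± 12.4 to 73.9 ± 25.1 CPM (1.68, SE 0.40, edgeR adjusted p = 0.0486). The lowest log2 fold change was that of Steap3, an endosomal ferrireductase (-0.75, SE 0.22, edgeR adjusted p = 0.0835). With the GC correction the log2 fold change was 0.48 for Cd44 (edgeR adjusted p = 0.0974), 0.70 for Ireb2 (0.0728), 1.19 for Cp (0.0494), 0.90 for Mylip (0.0192) and 3.58 for Megf10 (0.0124). It was -1.92 for Vldlr, 1.11 for Pparg and -0.60 for Steap3. When wild-type tumors 2 and 4 were left out, none of the 5 called genes passed, with 2 fewer tumors, at log2 fold changes of 0.70 for Cd44, 1.17 for Ireb2, 1.15 for Cp, 0.97 for Mylip and 3.25 for Megf10. The calls were also sensitive to single tumors. Leaving out any tumor except wild-type tumor 3 or ΔAgo2 tumor 1 ended the calls of Cd44 (edgeR adjusted p from 0.0725 to 0.167), Ireb2 (0.0600 to 0.148) and Mylip (0.0567 to 0.130). That of Cp ended without wild-type tumor 2 or 4 or ΔAgo2 tumor 2, 3 or 4 (0.101 to 0.146), and that of Megf10 without ΔAgo2 tumor 2, 3 or 4 (0.0515 to 0.0656). Scarf2 passed without wild-type tumor 1 (-1.46, adjusted p = 0.0348), wild-type tumor 3 (-1.47, 0.0261) or ΔAgo2 tumor 1 (-1.29, 0.0488), and Steap3 without ΔAgo2 tumor 1 (-0.88, 0.0407).

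The neighbourhood of Olr1 is the gene complex of C-type lectin and natural killer receptors. Within 500 kb, 47 genes are annotated and 18 were tested. None of the 18 was called by edgeR, 6 were higher at an unadjusted p below 0.05, and 2 with DESeq2 and 2 with voom after adjustment. Over all 16061 genes tested, 4281 passed at an unadjusted p in both directions together, and DESeq2 called 1113 higher and voom 2393. Of the 18, 15 had a log2 fold change above 0, against 8427 of the 16061. They ranged from -0.38 to 2.01 with a median of 0.78. The 2.01 was that of Clec12b, a gene at 0.113 CPM in wild-type and 0.602 CPM in ΔAgo2 tumors. With the GC correction 13 of the 18 were above 0 and the median was 0.18. The nearest tested genes at lower coordinates were Clec7a, the beta-glucan receptor dectin-1, at 12.5 kb (0.95, SE 0.42, edgeR adjusted p = 0.177, and 0.41 with the GC correction) and Clec1a, another lectin-like receptor, at 33.2 kb. Clec1a had 27.3 ± 12.1 CPM in wild-type and 81.1 ± 35.0 CPM in ΔAgo2 tumors, with overlapping groups (1.56, SE 0.40, edgeR adjusted p = 0.0594). It was 0.89 with the GC correction (adjusted p = 0.0614) and passed without wild-type tumor 3 (1.76, adjusted p = 0.0447) or ΔAgo2 tumor 1 (1.79, 0.0232). On the other side lay Gabarapl1, an autophagy gene, at 26.0 kb (0.15, SE 0.17, edgeR adjusted p = 0.573) and Gm44243 at 33.1 kb (-0.37, SE 0.44, edgeR adjusted p = 0.609). Their corrected values were 0.29 and -0.87.

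Around Scara5, 25 genes are annotated within 500 kb, 9 were tested and none was called by edgeR (1 higher and 1 lower at an unadjusted p below 0.05, 1 higher with DESeq2, and 2 higher and 2 lower with voom after adjustment). The median log2 fold change was 0.36, with 5 of 9 above 0. With the GC correction 5 were again above 0 and the median was 0.08. Scara3 lies 155 kb away with the value given above. At higher coordinates the nearest were Pbk, a mitotic kinase, at 41.0 kb (0.46, SE 0.31, edgeR adjusted p = 0.345, and 0.08 with the GC correction) and Esco2, a cohesin acetyltransferase, at 54.2 kb (1.18, SE 0.39, edgeR adjusted p = 0.103), which was 0.31 with the GC correction (adjusted p = 0.351) and passed without wild-type tumor 3 (1.53, adjusted p = 0.0476). At lower coordinates they were Elp3 at 73.3 kb (-0.01, SE 0.18, edgeR adjusted p = 0.968) and Zfp395 at 267 kb (-0.50, SE 0.31, edgeR adjusted p = 0.309). With the GC correction these were -0.05 and -0.19.

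**Figure D5:**
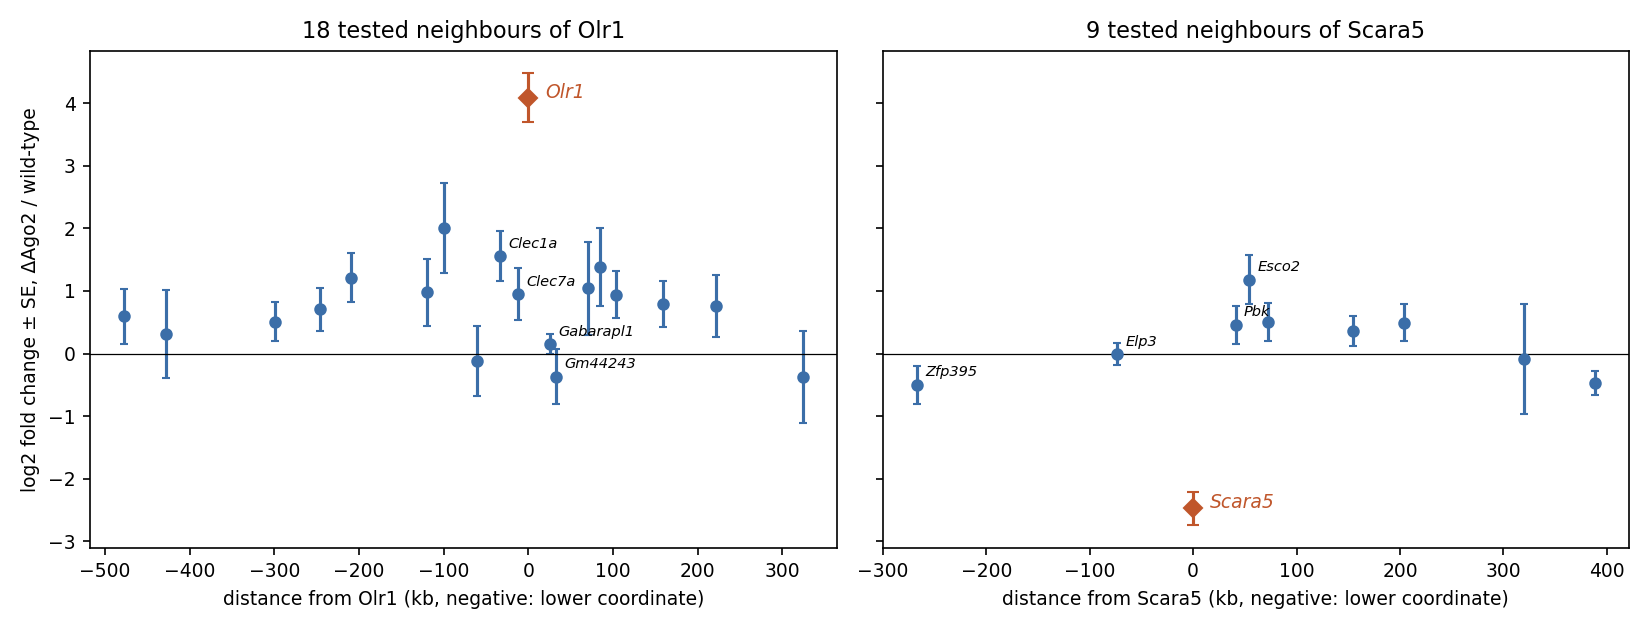
Log2 fold change (± SE, vertical axis) of tested genes against their distance from Olr1 (left, 18 genes) and Scara5 (right, 9 genes) in kb. Olr1 at 4.09 and Scara5 at -2.48 (orange diamonds) lie outside the range of their neighbours, which reach 2.01 and -0.50. Both were selected on this same contrast, so their position is no test.

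The genes most like Olr1 and Scara5 were found by Pearson correlation of log2 CPM over the 8 libraries among 13073 genes, as a description. Since each gene separates the genotypes, this measure mostly reflects that separation. For Olr1 they were Add2 (0.994), Mgat3 (0.991), Gpr137b (0.991), Srgap3 (0.985) and Frrs1 (0.983). For Scara5 they were Plekhb2 (0.990), Gne (0.987), 9930014A18Rik (0.983), Ap3b2 (0.981) and Plxna4 (0.976).

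After the mean of each genotype was subtracted, the genes most like Olr1 were Vps13d (0.999), Runx2 (0.995), Epb41l2, Nid1 and Carmil1 (0.994 each). Those most like Scara5 were Klk8 (0.984), Aldh3b2 (0.979), Sprr1a (0.955), Klk5 (0.944) and Plekhb2 (0.937), of which Klk8, Klk5 and Sprr1a are known from epidermis. Between Olr1 and Scara5 themselves the correlation was -0.129 after this subtraction. The same measure was 0.854 between Olr1 and Scara3 and -0.924 between Olr1 and Cd68. ΔAgo2 tumor 1 was the extreme of its group for each of these genes. Its log2 CPM of Olr1 was 4.12, while ΔAgo2 tumors 2 to 4 had 5.93, 5.18 and 5.61. Scara3 was 6.77 there, below 7.63, 7.58 and 7.70, and Cd68 was 7.28, above 6.73, 6.88 and 6.60. How far the correlations with Olr1 rest on this tumor was not tested. All these correlations share 8 libraries of unequal depth and GC lean.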

How the data were processed

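RNA-seq of 8 tumors (4 wild-type and 4 ΔAgo2) was analysed. The authors deposited raw counts per gene, as whole numbers with no normalization, and TPM values, which the authors made from counts, gene length and library total. Alignment to mm10 with STAR is named in the submitters' processing notes, and the study's methods for cultured cells name featureCounts. The strand setting and the treatment of multi-mapping reads for these gene counts were not given in the sources used here, so overlapping genes are uncertain. Column names gave each library's group and replicate through the sample labels. Members and gene lists were chosen with earlier results of these data known.

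Identifiers were matched to GENCODE M21 (GRCm38), 99.29% with their version. After removal of low genes (filterByExpr) and TMM scaling, the groups were compared in edgeR 4.0.16 (quasi-likelihood test, R 4.3.3) with Benjamini-Hochberg adjustment and a threshold of 0.05. CPM values used TMM-scaled totals, and log2 CPM a prior count of 2. P-values measure the spread between tumors, labelled as biological replicates. The script was tested on simulated counts with the same dispersion for every gene and no GC lean. The libraries do lean with GC, so that test is no check of the calls here. No adjusted p over a list alone was used. Genes were named by a fixed rule: the 10 members, in each further list the called genes and the highest and lowest log2 fold change, the 2 nearest tested neighbours on each side, the 5 genes most like Olr1 and Scara5, and Ago2.

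Alternatives were DESeq2 1.42.0, limma 3.58.1 (voom with quality weights, and log2 TPM with a pseudocount of 1 or 0.1 and a minimum of 0.5 TPM in 4 libraries), DESeq2 size factors, total counts, no filter, at least 10 counts in every library, equal depth, GC and length corrections, a block for the replicate number, leave-one-out fits, and, chosen after seeing the data, leaving out wild-type tumors 2 and 4. Motifs were searched in RefSeq promoters (GRCm38.p6).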

Additional observations from a re-analysis of the deposited data

Results flagged for a closer look

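In 3 of 22 groups of 4 tumors, 1 tumor lay far from the others by Dixon's gap criterion, where chance gives about 1.1. All 3 were ΔAgo2 tumor 1. Scara3 was 109 CPM there and 191 to 208 CPM in tumors 2 to 4. Marco was 4.25 CPM against 1.02 to 1.26 CPM. The summed macrophage markers were 3658 CPM against 1630 to 1976 CPM, and the part of this difference in the values of Marco and Scara3 was not tested.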

How the results depend on the processing

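Olr1 and Scara5 kept their direction under all 23 alternatives, but both were selected on their changes in these same libraries, so this is no test. Over all genes, 560 were called. The other counts were 983 without the count filter, 2256 with DESeq2, 4476 with voom, 153, 107 and 77 with TPM (pseudocount 1, 0.1, and 1 without filter), 1178 with the length correction, 100 without wild-type tumors 2 and 4, and 88 to 1793 leaving out each tumor (88 without ΔAgo2 tumor 4, 1793 without ΔAgo2 tumor 1, 143, 934 and 265 without wild-type tumors 2, 3 and 4, and at most 166 without ΔAgo2 tumor 2 or 3). The 1 called context gene became 2 without the filter or with DESeq2, 5 with voom, 0 with total counts, TPM, the GC correction or without wild-type tumors 2 and 4, and 0 to 2 leaving out each tumor. The 2 other receptors became 4 without the filter, with DESeq2, voom or the length correction, 1 with total counts or the GC correction, 0 with TPM or without wild-type tumors 2 and 4, and 0 to 3 leaving out each tumor. The 1 lipid gene became 5 with DESeq2, 4 with voom, 0 with TPM or without wild-type tumors 2 and 4, and 0 to 4 leaving out each tumor. The 2 iron genes became 4 with DESeq2 or voom, 1 with equal depth or the GC correction, 0 with total counts, TPM or without wild-type tumors 2 and 4, and 0 to 4 leaving out each tumor. The causes were not tested. TPM moved the median log2 fold change of all genes to 0.21 (pseudocount 1) and 0.28 (0.1), and no filter to 0.16.

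With the replicate block 70 genes were called, and 311 with the block and GC correction, with 0 in each of the 4 lists. After each genotype mean was subtracted, same-numbered tumors correlated at -0.236, 0.103, -0.045 and -0.290, and wild-type tumor 4 with ΔAgo2 tumor 1 at 0.325. The labels name no pairing, and correlations among libraries of different GC lean cannot settle it.

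Directions turned for Marco without ΔAgo2 tumor 1 (-0.131, the lowest of -0.131 to 1.05 leaving out each tumor), Cd36 with the GC correction (-0.0839) and without wild-type tumors 2 and 4 (-0.43), Scarb1 with voom (0.0315), TPM (0.0863, 0.0886 with pseudocount 0.1, and 0.0863 without filter) and without wild-type tumors 2 and 4 (0.21), and Zfp395 (0.0521 with voom, 0.24 without wild-type tumors 2 and 4). Elp3 turned to 0.0393 with total counts, 0.0407 without the filter, 0.197, 0.201 and 0.197 with TPM and 0.0282 with the length correction, and ran from -0.0923 to 0.0591 leaving out each tumor, above 0 without wild-type tumor 1, ΔAgo2 tumor 2 or ΔAgo2 tumor 4. Depth limits Marco (1 count) and Cd36 (7 counts) in wild-type tumor 4, and Megf10 in wild-type tumors (0 to 7 counts).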
